A study of Mus musculus with 8 samples.

Results

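The 10 genes described here encode chemokines, the CC ligands Ccl2, Ccl3, Ccl4, Ccl5, Ccl7, Ccl8, Ccl9, Ccl20 and Ccl25 and the CX3C ligand fractalkine (Cx3cl1). They were taken as all probe sets that the platform's annotation assigns to exactly 1 of these genes, which gave 15 probe sets of the 45037 on the array besides controls. Total RNA was measured on Affymetrix whole-genome mouse arrays in 4 samples of the cell line SThdh7/7 and 4 of SThdh111/111, with no treatment named in the labels. Both lines are known as embryonic striatal cells, from a series of Huntingtin knock-in mice, that a temperature-sensitive viral T antigen keeps dividing, and the numbers in the names stand for the polyglutamine length that both Htt alleles encode. SThdh111/111 models Huntington's disease and SThdh7/7 is its control, and the arrays do not read the repeat length that defines them. Each group is a single line, so genotype and any other difference between the lines cannot be told apart. Nothing in the labels gives each sample a culture of its own, so the p-values cover the spread among these arrays, which may be technical.

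Chemokines are small secreted proteins that guide leukocytes along concentration gradients through receptors that couple to G proteins. CC chemokines carry a pair of adjacent cysteines near the amino terminus, while in fractalkine other residues lie between these cysteines and the chemokine domain sits on a membrane-anchored stalk. In the brain, neurons make fractalkine and microglia carry its receptor, and CC ligands such as Ccl2 and Ccl5 are made by glia and other stromal cells when interferon or NF-kappaB signalling is active.

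The chemokines did not move as 1 group. Ccl5 stood out with a rise of 5.24 ± 0.19 (log2 difference, SE) in SThdh111/111, and Ccl2, Ccl7 and Ccl9 rose by 0.66 to 0.77. Ccl8 and Cx3cl1 fell by 0.67 and 0.60 on the log2 scale. Ccl4 and Ccl25 were measured in both lines and were not called, and Ccl3 and Ccl20 lay below the floor on all 8 arrays. The floor, a log2 intensity of 7.02, is the level under which unrelated bacterial control probe sets fall (their 95th percentile on the array where it was highest).

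At the brightest probe set of each gene, 4 of the 10 were called higher and 2 lower in SThdh111/111 (limma, Benjamini-Hochberg adjusted p under 0.05 over all probe sets tested). Among all 17389 genes tested in the same way, 29% were called in either direction, 13.1% higher and 15.9% lower. These shares are also the comparison for the count of each list below. The median difference was -0.01 over the 10 genes and -0.09 over all genes tested. All 15 probe sets passed the filter on dim signals, and 5 were called higher and 3 lower, against 9.87% and 12.6% (22.4% in either direction) of all probe sets tested. Lower calls were 56% of all calls as deposited and 39.5% when the arrays were given equal medians, so changes near 0 depend on the scale. The lines did not overlap on the brightest probe set of 5 of the 10 genes, against 31.6% of all genes.

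**Figure D1:**
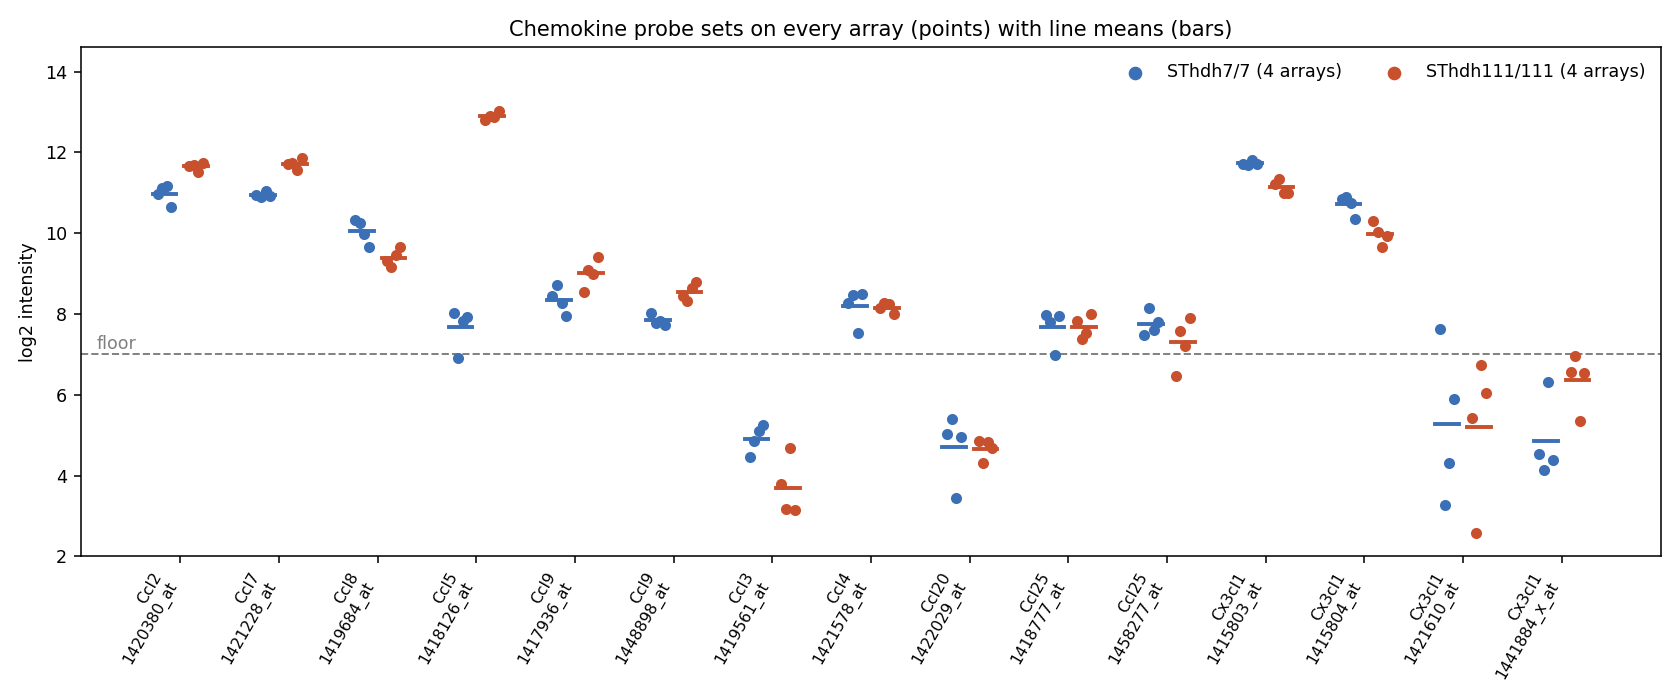
Log2 intensity (y axis) of the 15 chemokine probe sets (x axis, named by gene and probe set) on each of the 8 arrays. Points are arrays, short bars are line means over 4 arrays and the dashed line is the floor at 7.02; Ccl5 lies between 12.81 and 13.02 in SThdh111/111 and at or below 8.03 in SThdh7/7, and Ccl3 and Ccl20 lie below the floor throughout.

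Median intensities were higher in SThdh7/7 samples 1 and 2, at 173.9 and 174.0, than on the other arrays, at 136.2 to 147.0. The 95th percentile of the bacterial controls was 98.65 to 130.0 on SThdh7/7 arrays and 72.05 to 77.53 on SThdh111/111 arrays, so the background of dim probe sets moved with the line, and its part in their differences was not tested. The labels name no tissue. Of 10 neuronal markers Snap25, Tubb3, Gad1 and Ppp1r1b lay below the floor on all arrays. Rbfox3, Syt1, Map2 and Gad2 were above it on at least 4. Map2 was bright, at 10.86 in SThdh7/7 and 10.34 in SThdh111/111 (mean log2 intensity). By limma 0 of the 10 were called higher (0 at an unadjusted p under 0.05) and 2 lower. Of 10 fibroblast and mesenchymal markers 7 were called higher and 1 lower, with a summed intensity of 27300 to 28600 in SThdh7/7 and 96800 to 113000 in SThdh111/111. Of 9 astrocyte markers 3 were called higher and 1 lower. All genes tested gave 13.1% higher and 15.9% lower calls. The part of these markers in the chemokine differences was not tested. The housekeeping gene Actb was at 15.25 in SThdh7/7 and 15.21 in SThdh111/111 (mean log2 intensity).

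Leukocytes and endothelium are the other usual makers of CC chemokines. Among microglial and haematopoietic markers Ptprc, Aif1 and Itgam lay below the floor on all 8 arrays. Another 6 were above it on at least 4 arrays, with Cd68 at 10.56 in SThdh7/7 and 8.80 in SThdh111/111 (mean log2 intensity). Of the 14 markers tested 1 was called higher, Csf1r, and 1 lower, Cd68. Their summed intensity was 3090 to 4160 in SThdh7/7 and 2280 to 2750 in SThdh111/111. Without Cd68, left out after its value was seen, the sums of the other 13 overlapped, at 1610 to 2600 and 1880 to 2340, and the median difference of the 14 was 0.14. The endothelial marker Pecam1 lay below the floor on all 8 arrays, while 5 others, among them Kdr and Egfl7, were above it on at least 4. Of 8 endothelial markers tested 0 were called higher by limma (0 at an unadjusted p under 0.05) and 2 lower, with a summed intensity of 1300 to 1950 in SThdh7/7 and 1030 to 1200 in SThdh111/111. The part of either list in the chemokine differences was not tested.

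Ccl5 (RANTES), a ligand of Ccr1 and Ccr3 that recruits T cells and monocytes, was measured by probe set 1418126_at. Its log2 intensity was 8.03, 6.90, 7.82 and 7.92 on the SThdh7/7 arrays and 12.81, 12.90, 12.88 and 13.02 on the SThdh111/111 arrays. The lines were far apart, and 3 of the 4 SThdh7/7 arrays were above the floor. The difference of 5.24 ± 0.19 (SE; 95% interval 4.82 to 5.65; adjusted p = 1.9e-10) exceeded the within-line SDs of 0.52 and 0.09 (n = 4 each). With the lowest array set to the floor the difference was 5.21 or more, a rise of at least 36.9-fold. Of 12641 genes whose brighter line reached the floor, 24 had a larger rise on that scale. Without SThdh7/7 samples 1 and 2 the Ccl5 difference was 5.03. As the RNA is from whole cultures, more cells that make a transcript and more of it per cell cannot be told apart.

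Ccl2 and Ccl7, monocyte chemoattractants that act through Ccr2, are neighbours on chromosome 11. Ccl2 (1420380_at) read 10.96, 11.11, 11.18 and 10.66 in SThdh7/7 and 11.67, 11.70, 11.51 and 11.74 in SThdh111/111 (log2 intensity). Ccl7 (1421228_at) read 10.95, 10.90, 11.05 and 10.91 in SThdh7/7 and 11.72, 11.74, 11.57 and 11.85 in SThdh111/111. Both genes were well above the floor in the control line, and for both every SThdh111/111 array was above every SThdh7/7 array. Ccl2 rose by 0.68 ± 0.10 (SE; 1.60-fold; adjusted p = 2.5e-04). Ccl7 rose by 0.77 ± 0.07 (SE; 1.70-fold; adjusted p = 3.3e-06). The difference between these rises was not tested, and their 95% intervals, 0.45 to 0.90 and 0.61 to 0.93, overlap. SThdh7/7 sample 4 was the lowest Ccl2 array of its line, and without it the Ccl2 difference was 0.57.

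Ccl8, whose mouse product acts through Ccr8, lies in the same run of genes as Ccl2 and Ccl7 and went the other way. Probe set 1419684_at read 10.33, 10.26, 9.98 and 9.67 in SThdh7/7 and 9.31, 9.16, 9.46 and 9.65 in SThdh111/111 (log2 intensity). The lines did not overlap, but SThdh7/7 sample 4 and SThdh111/111 sample 4 differed by little. Ccl8 fell by 0.67 on the log2 scale (SE 0.15; 95% interval -0.99 to -0.34; adjusted p = 0.0049). The 2 highest arrays were SThdh7/7 samples 1 and 2, which also had the higher median intensities, and without them the difference was -0.43 and no longer called (adjusted p = 0.074).

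The order of the chemokine genes along chromosomes 11 and 8, taken from RefSeq's gene table for GRCm38.p6, is plotted with their differences. In the run Ccl2, Ccl7, Ccl11, Ccl12, Ccl8, Ccl1 the called genes were Ccl2 and Ccl7, higher, and Ccl8, lower. Ccl11, an eosinophil attractant, and Ccl12 did not pass the filter on dim signals, and Ccl1 lay below the floor on all arrays. The second run is Ccl5, Ccl9, Ccl6, Ccl3, Ccl4. Calls in opposite directions thus occurred within the first run, while in the second Ccl5 and Ccl9 were called higher and Ccl6, Ccl3 and Ccl4 were not called.

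Ccl9, a ligand of Ccr1 that attracts myeloid cells, had 2 probe sets. The brighter, 1417936_at, read 8.45, 8.71, 8.28 and 7.96 in SThdh7/7 and 8.55, 9.09, 8.98 and 9.41 in SThdh111/111 (log2 intensity). The second, 1448898_at, read 8.03, 7.78, 7.83 and 7.74 in SThdh7/7 and 8.45, 8.33, 8.64 and 8.79 in SThdh111/111. The lines overlapped on the first, where SThdh7/7 sample 2 was above SThdh111/111 sample 1, and did not overlap on the second. The first rose by 0.66 ± 0.20 (SE; adjusted p = 0.031) and the second by 0.71 ± 0.17 (SE; adjusted p = 0.0077). The call of the first was lost when any of SThdh111/111 samples 2, 3 or 4 or SThdh7/7 samples 3 or 4 was left out (differences of 0.52 to 0.66; adjusted p = 0.063 to 0.11), and in the fit with no intensity trend (adjusted p = 0.10). The call of the second held in all 17 alternatives in which it was tested, with differences of 0.63 to 0.86.

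Ccl3 and Ccl4 (MIP-1 alpha and beta), made mostly by activated leukocytes, were not called. Ccl4 (1421578_at) read 8.27, 8.48, 7.52 and 8.49 in SThdh7/7 and 8.14, 8.27, 8.24 and 7.99 in SThdh111/111 (log2 intensity). All SThdh111/111 arrays lay within the SThdh7/7 range, with a difference of -0.03 (95% interval -0.51 to 0.45; adjusted p = 0.95). A change within that interval was not detectable here, and the sign of the difference turns with the scaling. Ccl3 (1419561_at) ran from 4.45 to 5.25 in SThdh7/7 and from 3.15 to 4.69 in SThdh111/111, below the floor on every array, and no fold is given for it.

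Ccl20, the ligand of Ccr6, was likewise below the floor on all 8 arrays, at 3.44 to 5.41 in SThdh7/7 and 4.32 to 4.85 in SThdh111/111 (1422029_at, log2 intensity). Ccl25, the thymic and gut ligand of Ccr9, had 2 probe sets near the floor. Probe set 1418777_at read 7.98, 7.80, 6.98 and 7.94 in SThdh7/7 and 7.83, 7.37, 7.54 and 7.99 in SThdh111/111. Probe set 1458277_at read 7.47, 8.16, 7.61 and 7.79 in SThdh7/7 and 6.46, 7.59, 7.22 and 7.91 in SThdh111/111. Both sets of arrays overlapped, and the differences of 0.01 (95% interval -0.57 to 0.59; adjusted p = 0.99) and -0.46 (95% interval -1.14 to 0.22; adjusted p = 0.36) were within the spread between arrays.

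Fractalkine (Cx3cl1), on chromosome 8, was bright at 2 of its 4 probe sets. Probe set 1415803_at read 11.72, 11.70, 11.81 and 11.72 in SThdh7/7 and 11.23, 11.33, 10.99 and 11.00 in SThdh111/111 (log2 intensity). Probe set 1415804_at read 10.85, 10.89, 10.76 and 10.35 in SThdh7/7 and 10.31, 10.02, 9.65 and 9.92 in SThdh111/111. On both, every SThdh111/111 array was below every SThdh7/7 array. The first fell by 0.60 on the log2 scale (SE 0.08; 1.52-fold; adjusted p = 9.8e-05) and the second by 0.74 on the log2 scale (SE 0.14; 1.67-fold; adjusted p = 0.0017). Without SThdh7/7 samples 1 and 2 these differences were -0.63 and -0.58, and both were still called. The other probe sets were dim. Probe set 1421610_at was above the floor on 1 array, with adjusted p = 0.97. Probe set 1441884_x_at was above it on none, so no fold is given for it. The plain mean over all 4 probe sets, which weights the dim and bright ones alike, differed by 0.02 and was not called.

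**Figure D2:**
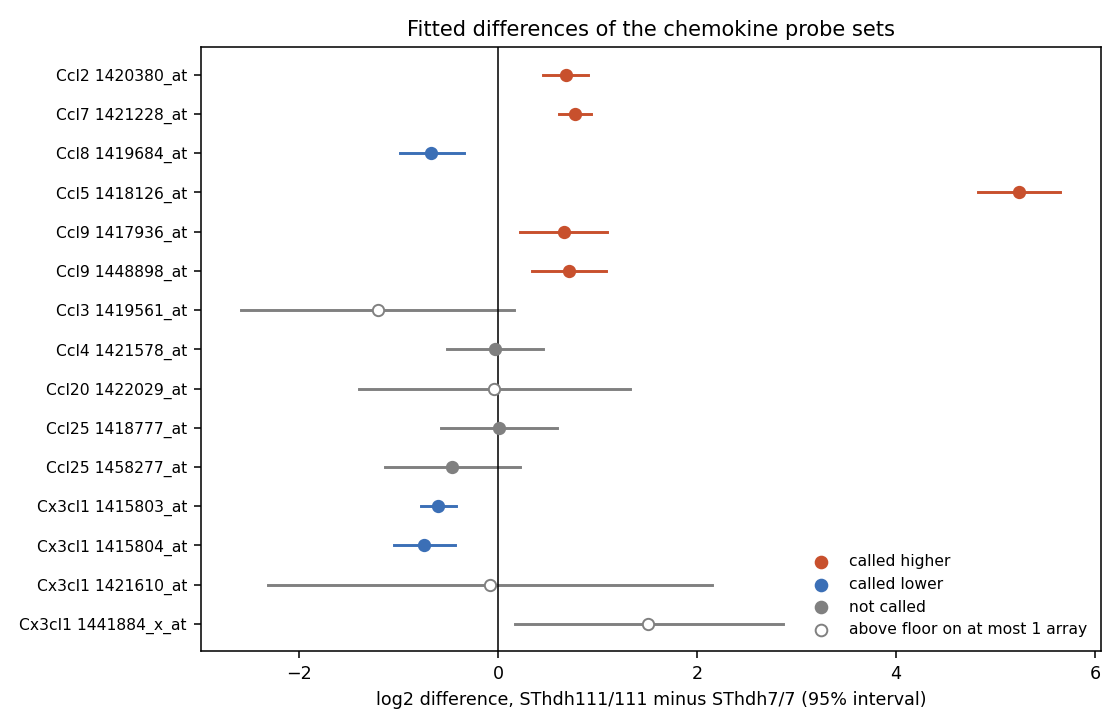
Fitted log2 difference (x axis, SThdh111/111 minus SThdh7/7) of each chemokine probe set (y axis) with its 95% interval. Orange points were called higher, blue lower and grey not called, and open points were above the floor on at most 1 of 8 arrays, so that their fitted values are no measured fold; the interval of Ccl5, 4.82 to 5.65, lies apart from those of all other probe sets.

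RefSeq's promoter table for GRCm38.p6, which spans 250 bases before to 50 after each annotated start, held 6 of the 10 genes (Ccl3, Ccl8, Ccl9, Ccl20, Ccl25 with 2 entries, and Cx3cl1). Ccl2, Ccl4, Ccl5 and Ccl7 had no entry. The windows of the 3 called genes with an entry are printed because they set the genes that fell, Ccl8 (chr11:82114935-82115234, plus strand) and Cx3cl1 (chr8:94771930-94772229, plus strand), beside 1 that rose, Ccl9 (chr11:83578587-83578886, minus strand). Capitals mark matches to any of the motifs searched, and sequences run 5′ to 3′.
Ccl8: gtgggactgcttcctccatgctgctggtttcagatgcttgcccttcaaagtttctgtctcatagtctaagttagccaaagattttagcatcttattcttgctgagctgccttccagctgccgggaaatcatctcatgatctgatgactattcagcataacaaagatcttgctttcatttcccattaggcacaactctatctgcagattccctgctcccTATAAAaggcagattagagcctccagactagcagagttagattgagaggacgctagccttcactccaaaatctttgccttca
Cx3cl1: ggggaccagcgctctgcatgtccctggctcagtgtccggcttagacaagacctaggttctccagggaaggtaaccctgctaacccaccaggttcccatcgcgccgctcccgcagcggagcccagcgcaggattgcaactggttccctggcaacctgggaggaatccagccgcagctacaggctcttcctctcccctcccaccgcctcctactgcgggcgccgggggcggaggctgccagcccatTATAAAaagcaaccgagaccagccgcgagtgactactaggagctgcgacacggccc
Ccl9: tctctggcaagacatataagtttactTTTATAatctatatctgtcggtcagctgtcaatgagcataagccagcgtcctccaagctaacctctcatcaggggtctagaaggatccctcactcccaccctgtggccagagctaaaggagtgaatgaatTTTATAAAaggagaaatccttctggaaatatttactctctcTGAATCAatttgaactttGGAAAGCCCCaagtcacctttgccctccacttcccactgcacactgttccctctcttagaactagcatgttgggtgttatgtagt

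The motifs searched, on both strands, were the TATA box TATAAA, the core of the interferon-stimulated response element, the AP-1 element TGANTCA, the C/EBP element TTGCNNAA, the STAT element TTCNNNGAA and the kappaB consensus. All 3 printed windows held the TATA box, starting 32 bases before the start in Ccl8, 6 in Cx3cl1 and 92 in Ccl9, where a match on the other strand overlaps it. This motif was in 13.6% of the 32851 promoter windows in the table. Ccl9 also held a kappaB match, found in 4.51% of windows, and an AP-1 match, found in 7.81%. Among the genes not called, Ccl20 held a kappaB match and the second entry of Ccl25 a TATA box. The interferon-response core (3.44% of windows), the C/EBP element (10.8%) and the STAT element (8.30%) were in none of the 7 windows. A match is a string of letters and does not show that a factor binds.

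Of 8 other ligands tested, Ccl27a was called higher and Ccl17 lower, and their median difference was -0.17. Ccl27a, a skin chemokine with near-identical gene copies, was measured by 1434962_x_at, which lay below the floor on all SThdh7/7 arrays and was at least 1.69-fold higher in SThdh111/111 (adjusted p = 0.011). The call was lost in the fit with no intensity trend (adjusted p = 0.055). The copies make its identity uncertain. Ccl17, a ligand of Ccr4 and the neighbour of Cx3cl1, was above the floor on 4 SThdh7/7 arrays and 2 SThdh111/111 arrays. The fitted log2 difference was -1.52 (adjusted p = 0.034), -1.01 with values under the floor set to it and -0.99 without SThdh111/111 sample 1, its lowest array. The call was lost with array weights (adjusted p = 0.055), after centring (0.053), with no intensity trend (0.12), without SThdh7/7 sample 1, 2 or 3 (adjusted p = 0.053 to 0.098) and without samples 1 and 2 together (adjusted p = 0.29). Ccl22, on the other side of Cx3cl1, was above the floor on 1 array and was not called.

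The receptors that these ligands act on were near or below the floor. Of 12 receptors tested 1 was called higher, Ccrl2, and 0 lower by limma, where 2 were lower at an unadjusted p under 0.05. Ccr1, Ccr3, Ccr7 and Ccr9 lay below the floor on all 8 arrays, and 3 of the 12 were above it on at least 4. The median difference of the 12 was -0.64, with values under the floor left as measured. The part of the higher SThdh7/7 background in that median was not tested. Ccrl2, which binds chemerin, rose by 0.61 ± 0.20 (SE; adjusted p = 0.040) from 7.85 ± 0.25 to 8.47 ± 0.27 (log2 intensity, SD, n = 4). The call of Ccrl2 was lost without SThdh111/111 sample 3 or 4 or SThdh7/7 sample 1 or 4 (adjusted p = 0.065 to 0.13). It was also lost without SThdh7/7 samples 1 and 2 together (difference 0.67, adjusted p = 0.075). The same held with the sample number as a block (adjusted p = 0.073) and with no intensity trend (adjusted p = 0.065). The Ccl20 receptor Ccr6 was at 7.63 ± 0.26 and 7.86 ± 0.40 and Ccr1l1 at 7.32 ± 0.27 and 7.22 ± 0.38, neither called. Cx3cr1, the fractalkine receptor, was above the floor on 3 SThdh7/7 arrays and 0 SThdh111/111 arrays, with both line means under it.

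Scavenger receptors bind chemokines without G protein signalling, and of 4 tested 1 was called higher and 1 lower (median difference -0.29). Ackr3, a receptor of Cxcl12, rose from 8.42 ± 0.11 to 10.86 ± 0.10 (log2 intensity, SD, n = 4), a difference of 2.44 ± 0.10 (SE; adjusted p = 4.7e-10). Ackr4, which takes up Ccl19, Ccl21 and Ccl25, did not reach the floor on any SThdh111/111 array. Against the floor it was 1.46-fold lower there (adjusted p = 0.0065). Ackr4 was dim in SThdh7/7 too, and the part of the higher background of that line was not tested. Ackr2, which scavenges inflammatory CC ligands such as Ccl2 and Ccl5, was at 7.39 ± 0.18 and 7.23 ± 0.29, and Ackr1 at 8.85 ± 0.25 and 8.44 ± 0.67, neither called.

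Of 8 proteases that cut chemokines 4 were called higher and 0 lower by limma (0 lower at an unadjusted p under 0.05). Over all genes tested 13.1% were called higher and 15.9% lower. Adam10, a sheddase of fractalkine, had log2 intensities of 11.83 ± 0.13 and 12.40 ± 0.05 (SD, n = 4) at its brightest probe set and rose there by 0.56 ± 0.07 (SE; adjusted p = 4.5e-05), but the mean over its probe sets was not called (difference 0.21). Adam17, the inducible sheddase, differed by 0.16 (95% interval -0.06 to 0.39; adjusted p = 0.32). Mmp2, which trims Ccl7, rose by 1.52 ± 0.06 (SE), and Mmp14 by 0.63 ± 0.06 at its brightest probe set. Mmp14 rose by 1.25 at 1416572_at and by 1.18 at 1440920_at, both also called higher. The median difference of the 8 was 0.60, and their summed intensity was 16000 to 16800 in SThdh7/7 and 32600 to 35400 in SThdh111/111. Mmp2 weighs most in that sum, as the brightest of the 8, at 12.79 in SThdh7/7 and 14.31 in SThdh111/111 (mean log2 intensity).

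Of 25 cytokines and receptors that induce chemokine genes 10 were called higher and 2 lower, and Tnf, Il1a and Ifng lay below the floor on all 8 arrays (median difference of the list 0.30). The gp130 receptor gene Il6st rose by 2.26 ± 0.07 (SE), the interleukin-1 receptor antagonist gene Il1rn by 2.89 ± 0.13 and the adaptor gene Myd88 by 1.40 ± 0.10. Il6 did not reach the floor on any SThdh111/111 array, and against the floor it was 1.43-fold lower there (adjusted p = 0.0044). It was dim in SThdh7/7 too, at 7.17 to 7.80 (log2 intensity), and the part of the higher background of that line was not tested. Il17rc, a receptor subunit for interleukin-17, fell at 1419671_a_at by 0.57 on the log2 scale (SE 0.09; adjusted p = 2.3e-04), and its other probe set, below the floor on all arrays, was not called.

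Of 20 transcription factors known to act on chemokine genes 10 were called higher and 2 lower (median difference 0.44). Irf7, an interferon regulatory factor, rose from 8.67 ± 0.13 to 12.51 ± 0.09 (log2 intensity, SD, n = 4; difference 3.84 ± 0.09, SE). Stat2, a subunit of the interferon-activated complex, rose by 3.20 ± 0.08 and Stat3 by 1.84 ± 0.07 (SE). The AP-1 subunit gene Fosl1 fell by 1.55 on the log2 scale. Rela, the main NF-kappaB activating subunit, fell by 0.30 on the log2 scale (SE 0.08; adjusted p = 0.013), a call lost when the arrays had equal medians (difference -0.14) and with no intensity trend (adjusted p = 0.12).

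Of 12 genes that restrain these pathways 6 were called higher and 2 lower (median difference 0.45). Socs3, which blocks gp130 signalling, rose by 2.96 ± 0.15 (SE), Zfp36, which destabilises cytokine transcripts, by 1.85 ± 0.10 and the phosphatase gene Dusp1 by 1.18 ± 0.09. Tnfaip3 (A20), which restrains NF-kappaB, was above the floor on 3 of 4 SThdh111/111 arrays at its brighter probe set and fell there by 1.55 on the log2 scale (SE 0.25; adjusted p = 4.2e-04). Without SThdh111/111 sample 3, the array under the floor, the difference was -1.23. The second Tnfaip3 probe set, above the floor on all 8 arrays, differed by -0.49 and was not called (adjusted p = 0.13), and the mean over both differed by -1.02 and was called. Cyld, a deubiquitinase, fell by 0.36 on the log2 scale at its brightest probe set, a call lost after centring (difference -0.20), with the mean over its probe sets (-0.16) and with no intensity trend (adjusted p = 0.056). Its 3 other probe sets differed by -0.27 to 0.08 and were not called. Against 13.1% higher and 15.9% lower over all genes, the 3 lists of inducers, factors and restraining genes held more higher calls than lower ones, and no test of the lists was made.

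**Figure D3:**
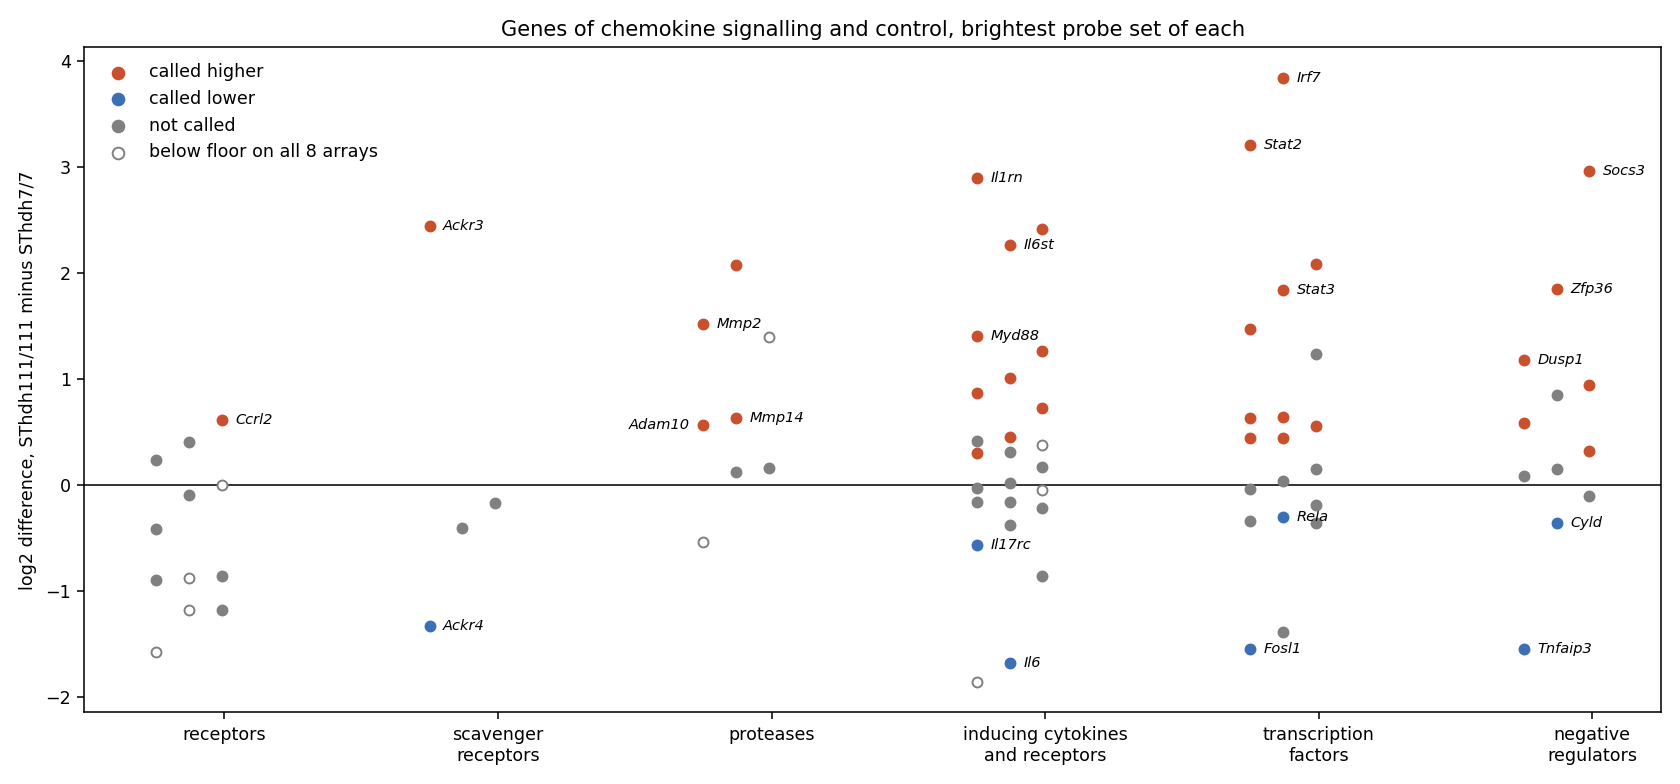
Log2 difference between the lines (y axis, SThdh111/111 minus SThdh7/7) of genes of chemokine signalling and control at their brightest probe sets, in 6 lists (x axis). Orange points were called higher, blue lower and grey not called, and open points were below the floor on all 8 arrays; Irf7 at 3.84 is the highest point and 4 of the 12 receptors are open.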

How the data were processed

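Per the labels' protocols, RNA was purified with Tri-reagent and RNeasy columns and labelled with biotin. The deposited values are 1 linear intensity per probe set and array. GCRMA is the only tool in the submitters' processing notes, yet every array's mean, with 2% trimmed from each end, was 500.0 and quantiles differed, the form of MAS5 signals, so the tool is not settled. Such signals are noisy when dim. Log2 was taken, the 64 control probe sets were left out, and probe sets with a log2 of at least 4 on at least 4 arrays were kept (41409).

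Symbols were updated by Entrez number, and 34945 probe sets had exactly 1 gene. The lines were compared with limma 3.58.1 (lmFit and eBayes with an intensity trend, R 4.3.3) on all 8 arrays, two-sided, adjusted over the kept probe sets, and the fit was tested on simulated data. A gene is represented by its brightest probe set. The floor came from 27 Bacillus control probe sets. Where every array of 1 line lay under it, a fold is given as a bound against it, and no fold where both did.

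The genes and lists were chosen with earlier results of these data known. Named were all 10 chemokines, of each list the 3 genes called higher and the 3 called lower with the smallest adjusted p whose brighter mean was above the floor, every receptor and scavenger receptor above it on at least 4 arrays, Ptprc, Pecam1 and Actb. Outside this rule were Adam17, Cx3cr1, genes beside the chemokines on their chromosomes, other cell type markers, list genes below the floor and the genes of the last section. Alternatives were other filters, scalings, priors, array weights and probe set rules, the sample number as a block, and left-out samples. The number of arrays limits the precision. Same-numbered samples correlated at -0.014 to 0.0090 in their deviations, which shows no sign of pairing by number but cannot exclude it. Figures were drawn with matplotlib 3.10.9.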

Additional observations from a re-analysis of the deposited data

Results flagged for a closer look

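A single array lay far from the other 3 of its line in 2 of 76 groups of 4 arrays examined, which did not cover every gene named. Chance flags about 1 group in 20. Ccl17 measured 5.03 (log2 intensity) on SThdh111/111 sample 1, against 6.98 to 7.34 on the other 3 arrays. Tnfaip3 measured 6.95 on SThdh111/111 sample 3, against 8.10 to 8.33 on the others. Both values lie under the floor of 7.02. Outside these groups single arrays stood apart too, for example for Il1r1 and Ptprc. Il1r1 measured 7.53 on SThdh7/7 sample 2, against 6.13 to 6.31 on the others. Ptprc, below the floor, measured 2.12 on SThdh7/7 sample 1, against 5.42 to 5.84.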

How the results depend on the processing

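The 10 genes gave 3 to 4 higher calls and 1 to 2 lower calls over 19 alternatives. With each sample left out in turn there were 3 to 4 higher and 2 lower. The lower calls dropped to 1 without SThdh7/7 samples 1 and 2, where Ccl8 was lost, and to 1 when probe sets were averaged by gene, where Cx3cl1 stood at 0.02. The differences of Ccl2, Ccl5 and Ccl7 kept their direction and call in all 19, at 0.57 to 0.83, 4.98 to 5.39 and 0.73 to 0.92. With the sample number as a block there were 4 higher and 2 lower calls, and among the genes named only the call of Ccrl2 was lost (difference 0.61). Centring moved the median of all probe sets from -0.12 to 0.04, and left Ccl2 at 0.83, Ccl7 at 0.92, Ccl9 at 0.81, Ccl8 at -0.51 and Cx3cl1 at -0.45, all called. The other reversals were of differences called neither way. Ccl4 stood at 0.01 with array weights, 0.12 after centring, 0.06 after quantile normalization, 0.16 without SThdh7/7 samples 1 and 2 and -0.25 to 0.07 with 1 sample left out. Ccl20 stood at 0.06, 0.12, 0.15 and 0.48 under the same settings and -0.46 to 0.20 with 1 sample left out. Ccl25 stood at -0.23 with the mean over its probe sets and -0.22 to 0.11 with 1 sample left out. Cx3cl1 probe set 1421610_at stood at 0.08 after centring, 0.13 after quantile normalization, 0.10 without SThdh7/7 samples 1 and 2 and -0.74 to 0.80 with 1 sample left out. Ccr1l1 stood at 0.05, 0.04 and 0.13 under the first 3 of those settings and -0.24 to 0.01 with 1 sample left out, and Ackr2 at 0.33 with the mean over probe sets. Actb stood at 0.11 after centring, 0.10 with that mean, 0.02 without SThdh7/7 samples 1 and 2 and 0.25 without probe sets that can match several transcripts, and -0.08 to 0.00 with 1 sample left out. The cause of these changes was not tested. Dim probe sets limit what can be seen: 3 of the 15 lay under the floor on all arrays.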

Other observations

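Further genes of the same lists, chosen after their values were seen, were also higher in SThdh111/111. Tlr2, Tlr3 and Tlr4, receptors for microbial products, rose by 0.87 ± 0.13, 1.26 ± 0.20 and 1.01 ± 0.13 (log2 difference, SE; limma adjusted p = 2.2e-04, 3.1e-04 and 4.1e-05). The interleukin-1 receptor gene Il1r1, which reached the floor on 1 SThdh7/7 array and on all 4 SThdh111/111 arrays, rose by 1.80 or more. Irf9, the DNA-binding partner of Stat2, had log2 intensities of 9.26 ± 0.11 in SThdh7/7 and 11.35 ± 0.10 in SThdh111/111 (SD, n = 4). The AP-1 subunit gene Fos rose by 1.47 ± 0.12 (SE). The gelatinase gene Mmp9 was above the floor on 3 SThdh7/7 arrays and rose by 1.64 or more. These directions and calls held in every alternative in which the genes were tested.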
